A study of Mus musculus with 3072 samples.

Results

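The nuclear-encoded respiratory chain genes examined here were 86 of the 55291 gene symbols in a count table of single bone marrow cells from mice. They were chosen by name, as symbols opening with Ndufa, Ndufb, Ndufc, Ndufs, Ndufv, Uqcr, Cox4 to Cox8 or Atp5, or being Sdha, Sdhb, Sdhc or Sdhd. A mean of at least 8 CPM, which are counts scaled to a common library size, was also required over the 24 sums of cells that each mouse and sorted population gave. Of 111 symbols with such names, 14 ended in -ps and were left out, and 11 of the remaining 97 fell under the minimum. The members comprise 36 subunits of complex I, 4 of complex II, 8 of complex III, 13 of complex IV, 17 of complex V and 8 complex I assembly factors. Just inside the minimum stood the assembly factors Ndufaf5 and Ndufaf6, with means of 15.8 and 26.6 CPM before scaling between libraries. Just outside it stood the cytochrome oxidase isoforms Cox4i2, at 1.02 CPM, and Cox6c2, at 0.20 CPM.

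The respiratory chain sits in the inner mitochondrial membrane. Complexes I and II pass electrons from NADH and succinate to coenzyme Q, complex III passes them on to cytochrome c, and complex IV hands them to oxygen. Complexes I, III and IV pump protons, and complex V, the ATP synthase, uses the proton gradient to make ATP. Most subunits are encoded in the nucleus and imported, while a few of complexes I, III, IV and V come from mitochondrial DNA. Haematopoietic stem cells are known for relying little on oxidative phosphorylation, and erythroid progenitors for the mitochondrial steps of haem synthesis.

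The samples came from wild-type C57BL/6 mice that had received barcoded stem cells by transplantation. Of the 8 mice, 4 were controls taken 32 weeks after transplantation and 4 were platelet-depleted and taken at week 28. Cells of 3 populations, labelled HSC, CFU and MkP without further explanation, were sorted singly from crushed marrow and made into Smart-seq2 libraries, which cover whole transcripts and carry no molecular identifiers. Treatment, week and experiment code coincide in all mice, so they cannot be told apart. Mice were distinguished by the code with which the sample titles begin.

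After filtering, 2668 wells remained, 697 HSC, 647 CFU and 1324 MkP, and their counts were added per mouse and population to 24 sums of 68792249 to 327869432 counts. The median well of a sum held 681559 to 2640913 counts. Summed marker genes separated the populations: 8 erythroid markers reached 5370 to 7640 CPM in the CFU sums, 37.4 to 295 CPM in HSC and 245 to 661 CPM in MkP. The 8 megakaryocyte markers reached 3770 to 6100 CPM in MkP, 1400 to 1940 CPM in HSC and 14.3 to 30 CPM in CFU. The 8 stem cell markers reached 763 to 1580 CPM in HSC and at most 193 CPM elsewhere. Markers of other cells were uneven in CFU, where 6 neutrophil genes summed to 3200 CPM in control mouse 3 and to at most 93.9 CPM in the other mice, and 6 myeloid genes ranged from 1.94 to 1100 CPM. B cell genes reached 193 CPM in CFU of depleted mouse 2 and at most 3.72 CPM in the other CFU sums. Outside CFU, neutrophil genes reached 538 CPM in HSC of depleted mouse 4 (at most 7.42 in other HSC sums). In MkP, 5 mast cell and basophil genes reached 814 CPM in depleted mouse 2 (19.6 to 67.8 in the others). T and NK cell genes summed to 296 to 480 CPM in MkP, 31.8 to 110 CPM in HSC and at most 31.7 in CFU. Of that list, Cd3e and Cd3g had no counts in MkP. Myeloid genes stood at 224 to 395 CPM in HSC and 57.1 to 340 CPM in MkP. Proliferation markers also followed the populations, with 67.1 to 366 CPM in HSC, 574 to 1080 CPM in MkP and 1200 to 1780 CPM in CFU. Marker CPM, here and below, were not scaled between libraries, unlike the CPM of the members. The part of these markers in the differences below was not tested.

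Promoter sequences of members that lead the results are shown first, because paralogous subunits turned out to move by different amounts. RefSeq windows of 300 bases (build GRCm38.p6), from 250 before to 50 after a start site, were found for 73 members. They were searched on both strands for 3 strings known as binding motifs of regulators of these genes: a palindrome for NRF1, whose letters are the capitals in Atp5g2 and Atp5k, CCGGAAGT for ETS factors such as GABPA, and AAGATGGC for YY1. The 250 upstream bases of 7 members follow, 5′ to 3′ on the gene's strand, with matches in capitals.
Atp5g1, chr11:96075632-96075881, minus strand: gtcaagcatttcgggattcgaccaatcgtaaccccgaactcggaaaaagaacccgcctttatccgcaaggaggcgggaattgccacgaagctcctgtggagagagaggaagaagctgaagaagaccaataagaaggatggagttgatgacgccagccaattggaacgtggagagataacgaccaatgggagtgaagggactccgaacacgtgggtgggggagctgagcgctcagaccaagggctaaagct
Atp5g2, chr15:102671048-102671297, minus strand: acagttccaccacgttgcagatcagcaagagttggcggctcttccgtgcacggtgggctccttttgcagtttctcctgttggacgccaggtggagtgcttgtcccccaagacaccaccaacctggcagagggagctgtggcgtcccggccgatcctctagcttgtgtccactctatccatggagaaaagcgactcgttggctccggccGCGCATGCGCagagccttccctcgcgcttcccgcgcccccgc
Atp5g3, chr2:73911327-73911576, minus strand: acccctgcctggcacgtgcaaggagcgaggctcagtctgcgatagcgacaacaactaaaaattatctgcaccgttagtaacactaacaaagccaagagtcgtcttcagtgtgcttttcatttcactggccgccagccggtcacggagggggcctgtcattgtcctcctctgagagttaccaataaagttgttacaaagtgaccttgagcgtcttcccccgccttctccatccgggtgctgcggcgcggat
Atp5k, chr5:108434400-108434649, minus strand: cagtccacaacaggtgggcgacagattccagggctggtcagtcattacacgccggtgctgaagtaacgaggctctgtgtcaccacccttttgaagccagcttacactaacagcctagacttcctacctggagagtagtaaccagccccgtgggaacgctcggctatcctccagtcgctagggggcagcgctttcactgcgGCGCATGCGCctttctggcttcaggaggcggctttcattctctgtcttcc
Cox6b1, chr7:30626115-30626364, minus strand: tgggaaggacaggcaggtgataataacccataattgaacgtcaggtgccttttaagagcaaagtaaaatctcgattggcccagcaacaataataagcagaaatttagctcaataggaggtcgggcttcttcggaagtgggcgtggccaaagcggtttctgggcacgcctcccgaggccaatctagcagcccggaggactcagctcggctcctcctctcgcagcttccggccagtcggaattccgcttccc
Cox6b2, chr7:4753095-4753344, minus strand: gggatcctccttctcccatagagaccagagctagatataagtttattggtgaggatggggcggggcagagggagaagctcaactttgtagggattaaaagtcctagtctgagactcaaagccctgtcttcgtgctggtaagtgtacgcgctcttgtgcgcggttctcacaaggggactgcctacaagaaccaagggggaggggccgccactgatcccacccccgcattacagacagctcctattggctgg
Uqcr11, chr10:80406822-80407071, minus strand: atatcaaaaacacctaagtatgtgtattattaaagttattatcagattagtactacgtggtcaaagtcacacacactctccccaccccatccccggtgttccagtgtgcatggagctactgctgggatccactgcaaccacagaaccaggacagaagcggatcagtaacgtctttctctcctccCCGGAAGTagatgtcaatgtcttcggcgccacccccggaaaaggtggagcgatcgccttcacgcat
Of the 3 genes for subunit c of the ATP synthase, Atp5g2 held the NRF1 string, 42 bases before its start, and neither Atp5g1 nor Atp5g3 held any of the strings. Atp5k, a small membrane subunit, held the NRF1 string as well, and Uqcr11, a small subunit of complex III, held the ETS string. The NRF1 string was present for 7 of the 73 members (9.6%) and for 1.07% of the 27025 genes with a window. The ETS string was present for 5 members (6.8%) and 4.31% of all genes, and the YY1 string for 11 members (15.1%) and 3.19% of all genes. Of the 11 members with the YY1 string, 7 belong to complex I, 3 to complex V and 1 to the assembly factors. A match is a string in a window and not a shown binding site. The median GC content of the upstream 250 bases was 57.6% for members' windows and 52.4% over all windows.

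Respiratory chain transcripts were lowest in HSC, intermediate in MkP and highest in CFU, and nearly every member took part. Summed over the 86 genes, CPM after scaling between libraries was 11080 ± 1155 (SD, n = 8 mice) in HSC, 15840 ± 1406 in MkP and 29330 ± 2009 in CFU. The HSC sums ran from 9915 through a median of 10750 to 13040 CPM, the MkP sums from 14210 through 15380 to 18670 CPM, and the CFU sums from 25720 through 29120 to 32170 CPM. None of these ranges overlapped. Within a mouse, the CFU sum was 2.67 ± 0.278 times the HSC sum (lowest 2.18, highest 2.95) and the MkP sum 1.43 ± 0.0797 times the HSC sum.

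**Figure D1:**
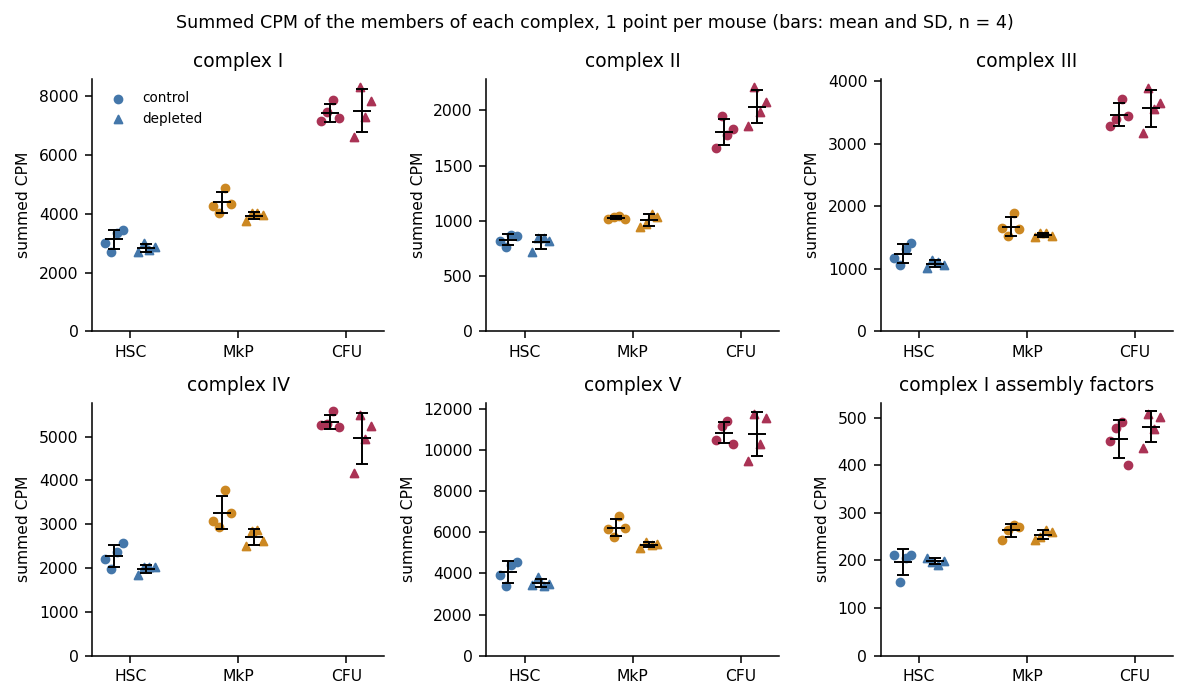
Summed CPM of the members of each complex in every mouse and population, with circles for control and triangles for depleted mice and bars for mean and SD of 4 mice. In every panel the CFU points stand above all MkP points, and the complex I sums run from 2697 to 3438 in HSC, 3763 to 4884 in MkP and 6594 to 8290 in CFU.

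Gene by gene, 85 members were higher in CFU than in HSC and 1, Cox7a2l, was lower, at a p under 0.05 from edgeR (quasi-likelihood), Benjamini-Hochberg adjusted over 20852 genes. Of all genes tested, 27.7% were called higher and 35.8% lower in that comparison, and the median log2 fold change was 1.39 for members and -0.27 for all genes. Between MkP and HSC, 80 members were higher in MkP, 1 was lower and 5 were not called, against 16.8% higher and 13.1% lower among all genes. Medians there were 0.56 for members and 0.01 for all genes. Between CFU and MkP, 80 members were higher in CFU, 1 was lower and 5 were not called, against 22.3% higher and 31.1% lower among all genes, with medians of 0.80 and -0.25. The 3 comparisons share sums, so the third follows from the other two. With the RLE scaling of DESeq2 in place of TMM, the median of all genes in CFU against HSC moved by -0.107. Expression is relative in these data: CPM are shares of counts rescaled between libraries by TMM, and absolute RNA per cell was not measured. The rescaling raised CFU against HSC: mean Atp5b went from 1270.5 to 1138 CPM in HSC and from 3262 to 3881 CPM in CFU. Before rescaling, the means of some called members ran the other way. Ndufv3 had 80.8 CPM in HSC and 74.2 in CFU, and Ndufa6 had 114 CPM in MkP and 107 in CFU.

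**Figure D2:**
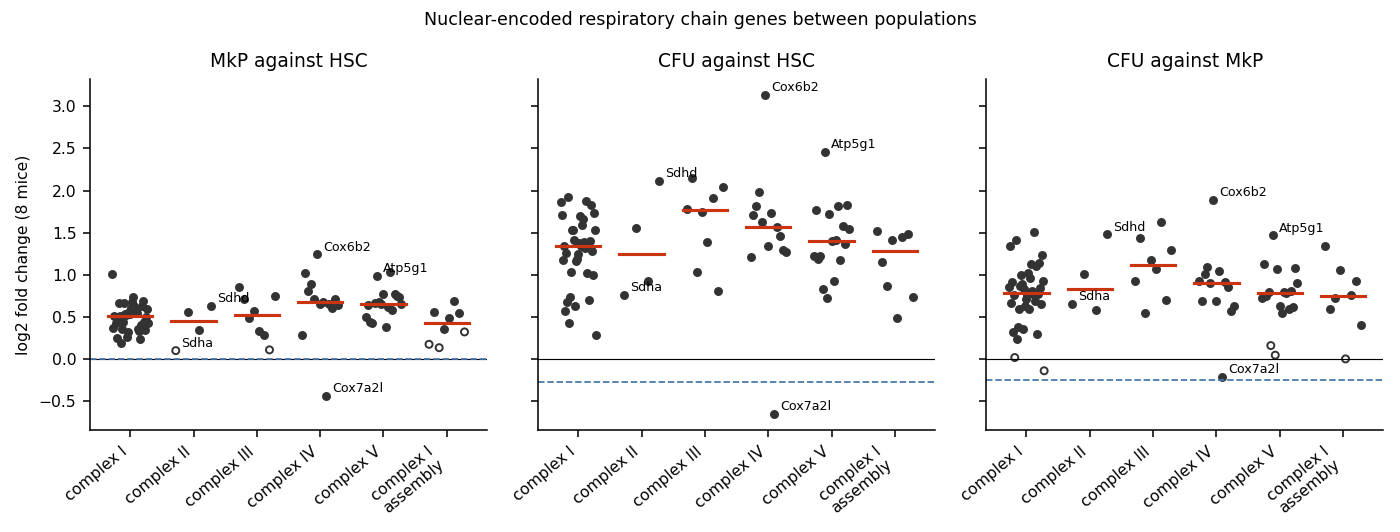
Log2 fold changes of the 86 genes in the 3 population comparisons, 1 point per gene, filled where the edgeR adjusted p is under 0.05, with red bars for the median of a complex and a dashed blue line for the median of all genes tested. The points of CFU against HSC lie above 0 for every gene but Cox7a2l, and the complex III median (1.77) is the highest of that panel.

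Complex I, the NADH dehydrogenase, takes electrons from NADH through a flavin and a row of iron-sulfur clusters held by its core subunits. Of its 36 nuclear members, 36 were higher in CFU than in HSC and 36 were higher in MkP than in HSC. Against MkP, 34 were higher in CFU and 2 were not called. The 7 core subunits and the 29 accessory subunits had like medians in CFU against HSC, 1.34 and 1.34. In MkP against HSC the core median was 0.36 and the accessory median 0.53, and in CFU against MkP they were 0.93 and 0.77. Those medians describe the groups, and their difference was not tested.

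Ndufs1, the largest core subunit and a carrier of iron-sulfur clusters, had 84.05 to 126.5 CPM in HSC (median 104), 101 to 153 CPM in MkP (median 137) and 327 to 424 CPM in CFU (median 374). HSC and MkP overlapped and CFU stood apart. Its log2 fold change was 1.51 ± 0.10 (SE) in CFU against MkP, edgeR adjusted p = 4.39e-12, among the 3 largest of that comparison. Ndufb9, an accessory subunit with the highest CPM per kilobase of complex I (337), rose from 112 to 141 CPM in HSC to 344 to 435 CPM in CFU, a log2 fold change of 1.67 ± 0.06. Its exons overlap those of another gene model on the same strand, so its counts are uncertain to that extent. Ndufa5, an accessory subunit of the peripheral arm, had the largest rise within the complex in CFU against HSC, 1.93 ± 0.09.

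At the other end stood Ndufv3, an accessory subunit of the NADH-binding module. It had 63.5 to 82.6 CPM in HSC, 73.97 to 107 CPM in CFU and 85.7 to 112 CPM in MkP. CFU overlapped both other populations, while HSC and MkP did not overlap. In CFU against HSC its log2 fold change was 0.28 ± 0.07, edgeR adjusted p = 0.000718, the value nearest to 0 among all members. In CFU against MkP it was -0.14 ± 0.07 without a call, adjusted p = 0.0867. With the mouse as a replicate block, which pairs the sums of an animal, the adjusted p became 0.0303 at a change of -0.14, and it passed the threshold under DESeq2 and RLE scaling as well. With GC and length trends removed the sign turned, to 0.17 with an adjusted p of 0.0205, so that the opposite direction passed too. Ndufa3, a small membrane-arm subunit, differed from HSC in both progenitor populations (0.66 ± 0.12 in MkP, 0.68 ± 0.12 in CFU) and had a log2 fold change of 0.02 ± 0.12 between them.

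Complex II, succinate dehydrogenase, is the one complex made from nuclear genes alone, and it also works in the tricarboxylic acid cycle. Its 4 genes did not move by equal amounts. Sdhd, a membrane anchor, had 97.8 to 138 CPM in HSC (median 129), 171 to 221 CPM in MkP (median 187) and 427 to 650 CPM in CFU (median 512), with no overlap. Its log2 fold change in CFU against HSC was 2.11 ± 0.09, edgeR adjusted p = 2.92e-15. Sdhb, the iron-sulfur subunit and the member with the highest CPM per kilobase in the complex (236), changed by 1.56 ± 0.09.

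Sdhc, the other anchor, and Sdha, the flavoprotein that binds succinate, moved less. Sdhc changed by 0.93 ± 0.07 and Sdha by 0.76 ± 0.06 in CFU against HSC, both called. Sdha had 414 to 485 CPM in HSC (median 450), 440 to 547 CPM in MkP (median 487) and 644 to 863 CPM in CFU (median 778). HSC and MkP overlapped, and their log2 fold change of 0.10 ± 0.06 was the smallest of any member in that comparison and was not called, edgeR adjusted p = 0.182.

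Complex III, the cytochrome bc1 complex, had the highest median in CFU against HSC, 1.77 over 8 genes, and in CFU against MkP, 1.12. All 8 genes were called higher in both. The small subunit Uqcr11, the highest of the complex per kilobase (459 CPM), had 61.7 to 118 CPM in HSC (median 80.2), 96.6 to 195 CPM in MkP (median 142.5) and 300 to 443 CPM in CFU (median 396). Only HSC and MkP overlapped, and the log2 fold change in CFU against HSC was 2.15 ± 0.14, edgeR adjusted p = 4.64e-12. Uqcrq, another small subunit, changed by 2.04 ± 0.13.

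Uqcrfs1 encodes the Rieske iron-sulfur protein, which moves electrons towards cytochrome c1. It had 100 to 164 CPM in HSC, 135 to 180 CPM in MkP and 441 to 525 CPM in CFU. Its log2 fold change was 1.63 ± 0.09 in CFU against MkP, edgeR adjusted p = 1.14e-12, and 0.28 ± 0.09 in MkP against HSC, adjusted p = 0.0227. The smaller difference lost its call under DESeq2, RLE factors, removal of GC and length trends, a fit of the 2 populations alone, and without control mouse 1, depleted mouse 1 or depleted mouse 4, with adjusted p from 0.0522 to 0.194 there. Uqcrh, the hinge protein that helps cytochrome c to dock, differed little between MkP and HSC (0.11 ± 0.07, adjusted p = 0.259) and by 0.81 ± 0.07 between CFU and HSC. The core proteins Uqcrc1 and Uqcrc2 changed by 1.75 ± 0.07 and 1.39 ± 0.08 in CFU against HSC.

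Complex IV, cytochrome c oxidase, held both the largest rise and the only fall among the members. Its nuclear subunits surround a catalytic core that is encoded by mitochondrial DNA. Cox6b2 is an isoform of the subunit Cox6b that is known from testis. It had 9.72 to 16.7 CPM in HSC (median 11.9), 25.1 to 41.5 CPM in MkP (median 28.55) and 87.8 to 121 CPM in CFU (median 117). The 3 ranges did not overlap. The log2 fold changes were 3.14 ± 0.12 in CFU against HSC (edgeR adjusted p = 3.15e-16), 1.24 ± 0.11 in MkP against HSC (1.42e-08) and 1.89 ± 0.11 in CFU against MkP (1.24e-12).

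Its paralog Cox6b1, expressed in most tissues, rose as well, by 1.62 ± 0.07 in CFU against HSC, from 145 to 263 CPM up to 446 to 656 CPM. The ratio of Cox6b1 to Cox6b2 CPM within a sum fell from 15.1 ± 2.82 (SD, n = 8) in HSC to 10.4 ± 1.46 in MkP and 5.18 ± 0.267 in CFU. A fixed transcript length cancels when this ratio is compared between populations, but a length trend that differs between libraries does not. The annotated lengths were 618 bases for Cox6b1 and 553 bases for Cox6b2. Cells were then thinned to 100000 counts each, which left out 12 cells. At that depth Cox6b2 had a count in 32.6% of HSC cells (22.8 to 46.2% by mouse), 61.5% of MkP cells (58.2 to 69.5%) and 96.4% of CFU cells (91.9 to 100%). Without thinning the shares were 45.9%, 71.3% and 98.5%.

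Cox7a2l, also called SCAFI, resembles the subunit Cox7a2 and is known for joining complexes III and IV into supercomplexes, which were not measured here. It ran against the other members, with 328 to 449 CPM in HSC (median 400), 259 to 347 CPM in MkP (median 294) and 222 to 323 CPM in CFU (median 251). HSC and MkP overlapped at the edges, and CFU lay below all HSC sums. Its log2 fold changes were -0.65 ± 0.06 in CFU against HSC (edgeR adjusted p = 6.22e-10), -0.44 ± 0.06 in MkP against HSC (2.85e-06) and -0.21 ± 0.06 in CFU against MkP (0.00283). The last call ended when GC and length trends were removed, with -0.05 and an adjusted p of 0.441. Cox7a2 rose by 1.73 ± 0.09 in CFU against HSC, so that the ratio of Cox7a2 to Cox7a2l went from 0.227 ± 0.0687 in HSC to 0.488 ± 0.12 in MkP and 1.16 ± 0.265 in CFU.

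The other subunits of complex IV rose together. Cox4i1, the widely expressed isoform of subunit 4 and the highest of the complex per kilobase (897 CPM), had 414 to 516 CPM in HSC, 489 to 622 CPM in MkP and 943 to 1139 CPM in CFU, and changed by 1.22 ± 0.05 in CFU against HSC. Cox6a1 changed by 1.99 ± 0.09 and Cox5a by 1.72 ± 0.09. Cox5a was among the 3 largest in MkP against HSC, at 1.02 ± 0.09 (edgeR adjusted p = 1.81e-08). Cox7b, Cox8a and Ndufa4 changed by 1.57 ± 0.10, 1.29 ± 0.10 and 1.27 ± 0.10 in CFU against HSC. Ndufa4 carries a complex I name and is counted here with complex IV, where it is now placed. The isoform Cox4i2, which is outside the list by its low level, went the other way: 6.1% of thinned HSC cells had a count, 2.1% of MkP cells and 0.3% of CFU cells, a description only at this depth.

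**Figure D3:**
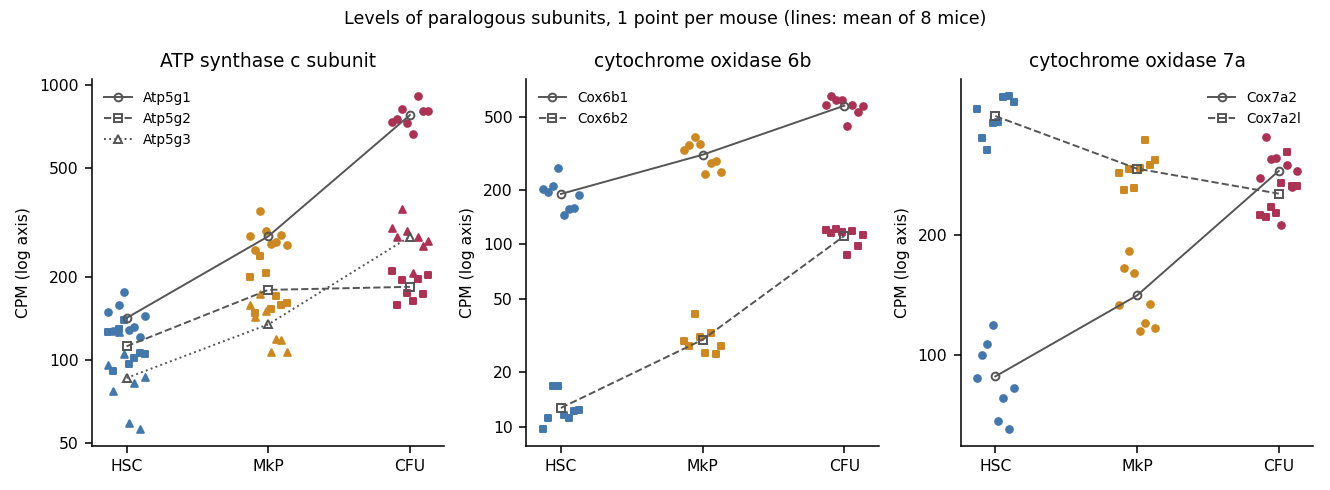
CPM of 3 sets of paralogous subunits in every mouse on log axes, with filled points for mice, and open symbols joined by lines for the means of 8 mice. Atp5g2 levels off between MkP and CFU while Atp5g1 and Atp5g3 go on rising, Cox6b2 climbs more steeply than Cox6b1, and Cox7a2l declines as Cox7a2 rises.

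Complex V, the ATP synthase, contributed the largest sums, 3801 ± 463 CPM in HSC, 5814 ± 530 CPM in MkP and 10830 ± 790 CPM in CFU (SD, n = 8). All 17 genes were higher in both MkP and CFU than in HSC. Atp5b, the catalytic beta subunit of the F1 head, was the highest member per kilobase (1184 CPM). It had 1012 to 1343 CPM in HSC, 1619 to 1967 CPM in MkP and 3531 to 4325 CPM in CFU, with no overlap, and changed by 1.77 ± 0.06 in CFU against HSC. Over the 5 genes of the F1 head the median in CFU against HSC was 1.22, over 4 stalk genes 1.47, and over 5 membrane subunits 1.42.

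Atp5k, the small membrane subunit e, was among the 3 largest in MkP against HSC. It had 18.4 to 40.7 CPM in HSC, 38.7 to 84.7 CPM in MkP and 56.1 to 125 CPM in CFU, so neighbouring populations overlapped. The log2 fold change was 1.03 ± 0.14 in MkP against HSC, edgeR adjusted p = 5.32e-06. Atp5e, the epsilon subunit of F1, gained 0.67 ± 0.10 in MkP and 0.83 ± 0.10 in CFU over HSC, and its 0.16 ± 0.10 between the 2 progenitor populations was not called.

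Subunit c, which forms the rotating ring, is encoded by 3 genes whose mature proteins are identical, and those genes moved unequally. Atp5g1 had 121 to 177 CPM in HSC (median 138), 250 to 348 CPM in MkP (median 276) and 663 to 914 CPM in CFU (median 777), with no overlap. Its log2 fold change of 2.45 ± 0.08 in CFU against HSC was the second largest among members, edgeR adjusted p = 7.73e-17. Atp5g3 changed by 1.72 ± 0.10 in the same comparison. Atp5g2 changed by 0.73 ± 0.10, almost all of it already present in MkP (0.68 ± 0.10), and its log2 fold change between CFU and MkP was 0.05 ± 0.10, adjusted p = 0.714.

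Ratios within a sum show the same shift of subunit c, but a length trend that differs between libraries would not cancel in them. The annotated lengths were 2676 bases for Atp5g1, 586 bases for Atp5g2 and 718 bases for Atp5g3. That of Atp5g1 is doubtful. Atp5g1 to Atp5g2 was 1.27 ± 0.0909 (SD, n = 8) in HSC, 1.58 ± 0.146 in MkP and 4.23 ± 0.434 in CFU, and the CFU ratios, from 3.48 to 4.76, lay above all others. Atp5g3 to Atp5g2 was 0.763 ± 0.139 in HSC, 0.752 ± 0.0958 in MkP and 1.53 ± 0.203 in CFU. With GC and length trends removed, Atp5g2 rose by 0.27 in CFU against MkP with an adjusted p of 0.00803.

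The 8 complex I assembly factors, which build the complex and are not part of it, were less abundant, at 197 ± 18.3 CPM in HSC, 259 ± 11.7 CPM in MkP and 468 ± 36.2 CPM in CFU as a sum. All 8 were higher in CFU than in HSC, 5 were higher in MkP than in HSC, and 7 were higher in CFU than in MkP. Ndufaf8, the highest per kilobase (41.8 CPM), was higher in CFU by 0.73 ± 0.15 and not called in MkP against HSC, 0.32 ± 0.15 with an edgeR adjusted p of 0.121. Its 0.41 ± 0.15 in CFU against MkP, adjusted p 0.0274, lost the call without control mouse 1 or without any 1 of the 4 depleted mice. Ndufaf5, a modifier of a core subunit, had 7.90 to 15.8 CPM in HSC, 13.98 to 21.5 CPM in MkP and 13.6 to 25.5 CPM in CFU. It was the member nearest to 0 in CFU against MkP, at 0.00 ± 0.14, and its call in CFU against HSC (0.49 ± 0.14) was lost when cells were thinned, with an adjusted p of 0.212.

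Single cells showed the order of the populations too, on counts that were not scaled between libraries. The median share of a cell's counts from the 86 genes was 1.17 ± 0.0765% (SD of 8 mouse medians) in HSC, 1.63 ± 0.102% in MkP and 2.47 ± 0.104% in CFU. Mouse medians ran from 1.06 to 1.31% in HSC, 1.51 to 1.815% in MkP and 2.26 to 2.61% in CFU, so the populations did not overlap. The median cell had a count for 73 to 80 members in HSC, 78 to 82 in MkP and 85 in CFU, at unequal depths.

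**Figure D4:**
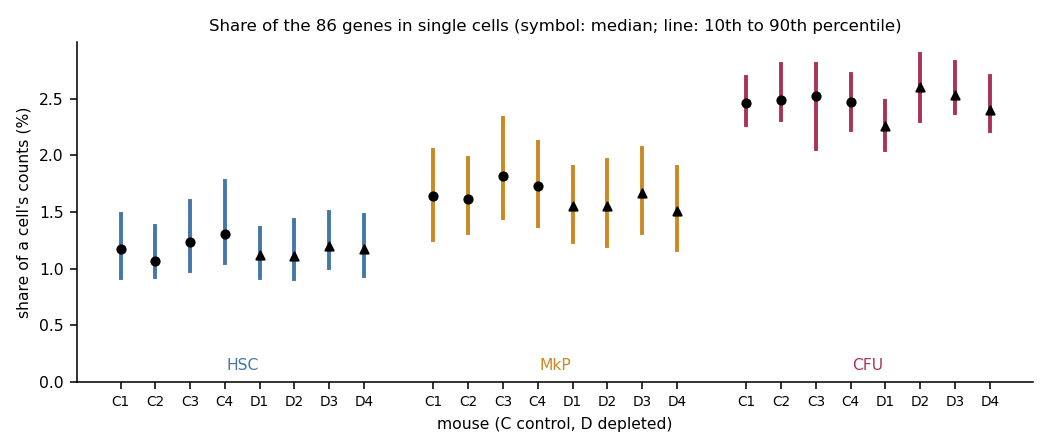
Share of each cell's counts that came from the 86 genes, by mouse, with symbols for the median cell and lines from the 10th to the 90th percentile of cells. CFU medians lie between 2.26 and 2.61% and above the 90th percentile line of every HSC mouse.

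Other genes of mitochondrial energy metabolism were taken from 6 further lists. The tricarboxylic acid cycle, which feeds the chain, had 16 of 16 genes higher in CFU than in HSC with a median of 1.30, from Suclg2 at 0.19 ± 0.08 to Idh3a at 2.20 ± 0.09. Of 17 genes of import and outer membrane, 16 were higher, with a median of 1.505, and Tomm40, the import pore, changed by 2.33 ± 0.12. Of 37 assembly and copper delivery genes outside the members, 28 were higher and 4 lower, with a median of 0.74, and Cox14, a factor in making the core of complex IV, fell by 0.61 on the log2 scale. In MkP against HSC these lists had 12 of 16, 14 of 17 and 8 of 37 genes higher, with medians of 0.36, 0.50 and 0.19.

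Electron carriers and coenzyme Q synthesis had 14 of 20 genes higher and 3 lower in CFU than in HSC. Cycs, which encodes cytochrome c, changed by 2.45 ± 0.11, from a mean of 83.9 CPM in HSC to 453 CPM in CFU. Coq8a, a kinase-like protein of coenzyme Q synthesis, changed by -4.16 ± 0.15, from 191 CPM in HSC through 64.3 CPM in MkP to 10.6 CPM in CFU. Among 19 tested regulators of these genes, 11 were higher and 2 lower in CFU than in HSC. Gabpa, an ETS factor, rose by 1.35 ± 0.13, and the coactivator Ppargc1a had a mean of 1.64 CPM in HSC and 0.0116 CPM in CFU.

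As counted here, the 13 subunits that mitochondrial DNA encodes moved less than the nuclear members. In CFU against HSC 8 were higher and 5 not called, with a median of 0.28, and in MkP against HSC 1 was higher and 2 lower, with a median of -0.12. mt-Nd1, a complex I subunit, had the largest change, 1.46 ± 0.09 in CFU against HSC. The counted levels of these subunits were uneven. Mean CPM in HSC was 1680 for mt-Nd1, 37.9 for mt-Co2 and 2.88 for mt-Nd4l. How completely their reads were counted was not tested. Their small changes may therefore not reflect the transcripts. The difference between nuclear and mitochondrial genes was not tested.

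Platelet depletion came with small differences, mostly downward. By edgeR none of the members was called, while DESeq2 called 21 lower in MkP, 4 in CFU and 3 in HSC. The question is whether expression differed after platelet depletion, and 4 depleted mice were set against 4 controls in each population. In HSC the complex IV sum was 1981 to 2572 CPM in controls (mean 2280 ± 250, SD) and 1831 to 2034 CPM after depletion (mean 1976 ± 97.3), and the ranges overlapped. In MkP it was 2937 to 3788 CPM (mean 3264 ± 373) and 2496 to 2866 CPM (mean 2705 ± 181), without overlap. Complex V in MkP also separated the groups, with 5795 to 6792 CPM in controls and 5245 to 5540 CPM after depletion. So did complex I (4036 to 4884 and 3763 to 4018 CPM) and the sum of all 86 members (15590 to 18670 and 14210 to 15170 CPM). Complex III overlapped in MkP, with 1523 to 1886 and 1511 to 1565 CPM, as did complex II and the assembly factors. How often such ranges separate over all genes was not counted. Complex II did not follow: in CFU its mean was 1802 ± 120 CPM in controls and 2032 ± 148 CPM after depletion, with overlapping ranges.

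In HSC, 0 of 86 members were called by edgeR, as were 0% of the 17146 genes tested, and 20 members had an unadjusted p under 0.05, all lower, against 8.56% of genes. DESeq2 called 3 members lower, against 1.56% of genes. The median log2 fold change was -0.23 and 76 members were below 0, with a median of 0.00 over all genes. In CFU, edgeR called 0 members and 0% of 15661 genes, 23 members had an unadjusted p under 0.05 against 11.9% of genes, 20 of them lower, and DESeq2 called 4 members against 3.01% of genes. The median there was -0.08, with 60 members below 0. It moved to -0.031 without depleted mouse 1 (47 members below 0), to -0.034 without control mouse 3, to -0.121 without depleted mouse 2, to -0.132 with thinned cells and to -0.014 in a fit of all 24 sums (47 below 0). In MkP, edgeR called 0 members and 0.0108% of 18512 genes, 34 members had an unadjusted p under 0.05 against 13.7% of genes, 32 of them lower, and DESeq2 called 21 members lower against 5.16% of genes. The median was -0.17, with 74 members below 0.

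Complex IV and the membrane part of complex V were furthest below 0. Medians for complex IV were -0.35 in HSC, -0.25 in CFU and -0.32 in MkP, and for the 5 membrane subunits of complex V -0.44, -0.47 and -0.51. Core subunits of complex I had medians of -0.11, 0.05 and -0.02, and complex II of -0.03, 0.09 and -0.01. The assembly factors were at 0.07, -0.01 and -0.08. These group medians carry no test.

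Cox7b, a small subunit of complex IV, had the smallest p in HSC. Its control values were 99.7, 99.3, 114.5 and 128 CPM and its depleted values 61.7, 71.4, 68.02 and 85.99 CPM, with no overlap. The log2 fold change was -0.64 ± 0.13, with an adjusted p of 0.261 by edgeR. In MkP the controls had 161, 150, 198.5 and 166 CPM and the depleted mice 105, 126, 121 and 114 CPM, again apart, at -0.52 ± 0.10 and an adjusted p of 0.128. In CFU the change was -0.35 ± 0.13 and the groups overlapped. DESeq2 called Cox7b in HSC and in MkP, with adjusted p of 0.00639 and 0.00026, and not in CFU (0.121).

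Cox7a2 and Cox6b1 were next in HSC, at -0.51 ± 0.13 and -0.44 ± 0.12, with edgeR adjusted p of 0.364 and 0.427. Atp5g3 had the smallest p in MkP. Its controls had 158, 143, 174 and 151 CPM and its depleted mice 107, 119, 118 and 107 CPM, a log2 fold change of -0.46 ± 0.08 with an adjusted p of 0.128. Cox6b1 was separated there as well, with 331, 351, 388 and 355 CPM in controls and 245, 278, 286.5 and 250 CPM after depletion. Its change was -0.41 ± 0.08, adjusted p 0.128 by edgeR. By DESeq2 the adjusted p in MkP was 5.28e-05 for Atp5g3 and 0.000134 for Cox6b1. In HSC the DESeq2 adjusted p was 0.0371 for Cox7a2 and 0.0752 for Cox6b1, the latter not called.

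In CFU the smallest p belonged to Ndufa3. The 4 controls had 83.2, 88.6, 104 and 94.8 CPM and the 4 depleted mice 42.8, 71.6, 69.1 and 67.2 CPM. Its log2 fold change was -0.63 ± 0.15, adjusted p 0.249 by edgeR. The small ATP synthase subunits Atp5mpl and Atp5md followed, at -0.47 ± 0.12 and -0.48 ± 0.13. DESeq2 called these 3, with adjusted p of 0.00715, 0.0143 and 0.023. Of the 86 members, 55 were below 0 in all 3 populations and 5 above 0 in all 3, namely Cox7a2l, Ndufa8, Ndufaf4, Ndufb7 and Sdhc. Cox7a2l was at 0.19 ± 0.11 in HSC, 0.24 ± 0.07 in CFU and 0.20 ± 0.08 in MkP, none called (edgeR adjusted p 0.641, 0.287 and 0.299).

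Transcript length moved with these differences. The members are short, with a median of 863 bases against 2194 bases for all genes tested that have a length. The 23 members under 600 bases had medians of -0.27 in HSC, -0.21 in CFU and -0.30 in MkP, while all genes of that length had medians of -0.58, -0.68 and -0.56. The 25 members of 1200 bases or more had -0.12, 0.01 and -0.11, and all genes of that length 0.05, 0.05 and 0.07. Across the 86 members, which share libraries, Pearson's r between the log2 fold change and log2 length was 0.37 in HSC, 0.57 in CFU and 0.61 in MkP. With GC and length trends removed from each sum, the member medians became 0.08 in HSC, 0.12 in CFU and 0.04 in MkP, so the downward direction was lost in all 3 populations. The single genes moved as well: in CFU, Ndufa3 went to -0.09, Atp5mpl to 0.12 and Atp5md to 0.26. In MkP, Atp5g3 went to -0.10, Cox6b1 to 0.02 and Cox7b to -0.33, and in HSC Cox7b went to -0.44, Cox7a2 to -0.05 and Cox6b1 to 0.06.

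**Figure D5:**
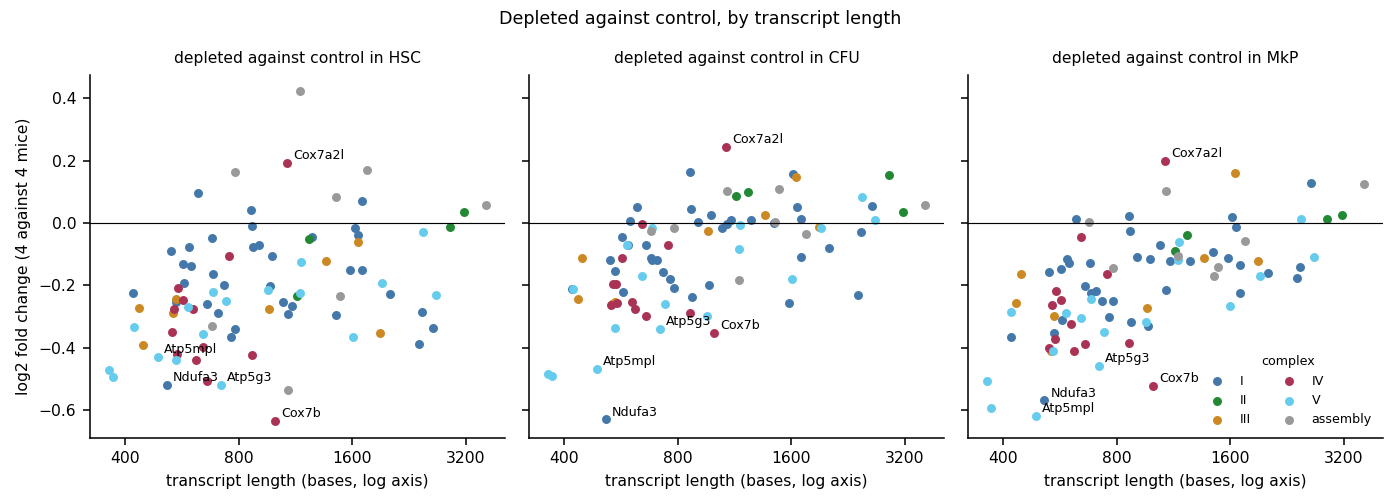
Log2 fold change of each of the 86 genes in depleted against control mice of each population, by transcript length on a log axis, colored by complex. In CFU and MkP the genes furthest below 0 are short, such as Ndufa3 and Atp5mpl, and the longest genes lie near 0.

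Measures of the libraries also moved with treatment. The median number of genes per cell was 5700 to 6808 in control and 5329.5 to 5758 in depleted HSC sums, 8301 to 8508.5 and 7579 to 8242 in CFU, and 6557 to 7171.5 and 5509 to 6180 in MkP. The median share of mitochondrially encoded counts was 2.79 to 3.49% in control and 2.45 to 2.69% in depleted MkP sums. Proliferation markers in MkP were at 808 to 1080 CPM in controls and 574 to 799 CPM after depletion. In HSC, myeloid markers were at 224 to 263 CPM in controls and 278 to 395 CPM after depletion, macrophage markers at 30.3 to 100 and 11.8 to 23.7 CPM, and erythroid markers at 43.8 to 295 and 37.4 to 42.6 CPM. The ranges of the other lists overlapped between treatments in each population. The part of these measures in the differences of the members was not tested.

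Whether the treatment difference itself varied between populations was asked with interaction terms. No member was called in any of the 3. For CFU against MkP 85 members lay above 0 (median 0.17), for CFU against HSC 76 (0.17) and for MkP against HSC 35 (-0.02). With GC and length trends removed, those medians were 0.08, 0.09 and -0.01. The members share libraries, and these signs were not tested. For MkP against HSC, 4 members had an unadjusted edgeR p under 0.05 against 6.05% of genes, and the call rate of all genes was 0.0144%. For CFU against HSC it was 8 members against 9.05% of genes, with 0% of genes called, and for CFU against MkP 1 member against 5.89%, with 0% called. DESeq2 called 0 members in each, against 1.51%, 2.82% and 2.19% of genes. The smallest p belonged to Ndufs1 (0.43 ± 0.16, edgeR adjusted p = 0.664), to Uqcrc2 (0.39 ± 0.14, adjusted p = 0.371) and to Sdha (0.22 ± 0.10, adjusted p = 0.821) in that order of comparisons.

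Counts of single members carry some limits. In the GENCODE M21 annotation, exons of 24 members overlap those of another gene, 4 of them on the same strand, and no strand rule is stated for the counting. Processed copies of several members exist in the genome, 14 of them named in the count table, so reads may be shared with such copies. No counting interval is given, since reads without molecular identifiers are not independent molecules. The p-values rest on the spread between mice as the sample titles define them.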

How the data were processed

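The deposited values are read counts per gene and well, whole numbers that the authors made with Trim Galore 0.5, STAR 2.6.0 and HTSeq 0.6.1, per the submitters' processing notes. The alignment's genome build was not given in the sources used here. Among 3070 columns 3069 matched a sample title, and 1 was not used. Rows sharing a symbol (107 symbols) were summed. Wells with at least 20000 counts, 1000 genes and at most 20% mitochondrially encoded counts were kept (2668, with 401 removed). Whether wells hold doublets was not called; a limit of 10000 genes per well was an alternative. Counts were summed per mouse and population, because cells are not replicates. The 8 mice were told apart by the code in the sample titles, which no label explains.

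Sums were tested in R 4.3.3 with edgeR 4.0.16 (TMM scaling, filterByExpr, quasi-likelihood test, Benjamini-Hochberg adjustment over all genes tested, called at an adjusted p under 0.05). Population comparisons and interactions used all 24 sums, and treatment was fitted within each population. CPM are TMM-scaled unless said otherwise, except those of the marker lists, which were not scaled between libraries. Transcript lengths and GC content came from GENCODE M21, as medians over the transcripts marked principal there, where a gene had any. That definition was chosen after lengths over all protein-coding transcripts looked unrealistic for some members. The edgeR code was run on simulated counts with known changes, drawn independently for each sum with edgeR's own spread. Those counts held no pairing of mice and no length trend, so the run cannot show how the tests behave with them. Alternatives were DESeq2 1.42.0, RLE factors, other filters, thinning, removal of GC and length trends, leaving out each mouse, and the mouse as a replicate block. The trends were lowess curves fitted in R to each sum and given to edgeR as offsets. The same mouse gave all populations, so that the sums are paired. Deviations of same-mouse sums from their group means correlated over genes at 0.033 to 0.203 in 24 pairs, 9 of them over 0.1.

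The members and lists were chosen with earlier results of these data known. Genes named with values are, by rule, the highest per kilobase in each complex, the 3 largest changes in each direction and the one nearest to 0 in each population comparison, the 3 smallest p of each treatment comparison, the smallest p of each interaction, paralogs, complex II, and the ends of each further list. Ndufa5, Ndufa6, Uqcrq, Uqcrh, Uqcrc1 and Atp5e were added after their values were seen.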

Additional observations from a re-analysis of the deposited data

Results flagged for a closer look

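In 216 groups of 4 mice (30 named members and the sums of the complexes), 11 held a mouse whose gap to the next value took a larger share of the group's range than Dixon's critical value. Chance gives about 1 such group in 20, which is close to that number.

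In CFU, depleted mouse 1 had the lowest value of the 4 depleted mice in 73 of the 86 members, and its gap was large enough to be listed in 4 of them. It had 56.1 CPM for Atp5k (other depleted mice 85.8 to 91.6), 451 CPM for Cox6a1 (543 to 562), 42.8 CPM for Ndufa3 (67.2 to 71.6) and 165 CPM for Sdhc (195 to 198). The same mouse had the lowest complex IV sum among depleted HSC, 1830 CPM against 2020 to 2030.

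Control mouse 2 was lowest in HSC for the sum of the assembly factors, 156 CPM against 205 to 212, and for Sdhd, 104 CPM against 128 to 132. Control mouse 3 was highest for the complex IV sum in CFU, 5580 CPM against 5230 to 5280, and for Cox4i1 in MkP, 622 CPM against 564 to 573. In CFU, control mouse 4 had 192 CPM of Cox5a against 230 to 233, and depleted mouse 2 had 323 CPM of Cox7a2l against 266 to 271.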

How the results depend on the processing

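Among the 30 members named by rule, 14 of 1620 values between populations turned sign, all in CFU against MkP and in Ndufa3, Ndufaf5, Atp5g2 or Ndufv3, none of them called with the settings of the report. Leaving out each mouse in turn gave 78 to 81 members called in MkP against HSC (medians 0.535 to 0.583), 86 to 86 in CFU against HSC (1.355 to 1.435) and 80 to 81 in CFU against MkP (0.769 to 0.848). With the mouse as a replicate block, the paired fit called 81, 86 and 82 members, with medians of 0.566, 1.395 and 0.803, and no interaction. Of the 30 members named by rule, it changed the call of Ndufv3 in CFU against MkP, and other named genes were not recomputed with it one by one.

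The median of MkP against HSC moved to 0.48 under DESeq2, 0.48 with RLE factors and 0.381 with GC and length trends removed, and that of CFU against MkP to 1.001 with the trends removed. Members called higher in MkP than in HSC went from 80 to 76, 74 and 68 in those settings. The cause was not tested. Ndufv3 in CFU against MkP reversed to 0.17 with the trends removed.

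For treatment, DESeq2 called 3 members in HSC, 4 in CFU and 21 in MkP where edgeR called 0. With the trends removed, the medians were 0.084 in HSC, 0.123 in CFU and 0.043 in MkP. Leaving out each mouse gave medians of -0.284 to -0.164 in HSC (without control mouse 2 and control mouse 4), -0.121 to -0.031 in CFU and -0.231 to -0.118 in MkP, with 0 members called. Of the 30 members' values, 17 lost their call and 5 gained one between populations, Ndufv3 with its turned sign among them, and 18 gained one by treatment. Without a call, 107 of 1530 treatment values turned sign, 51 of them with the trends removed, and 121 of 1530 interaction values.

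Ndufaf5, the member with the lowest mean CPM, lost its calls against HSC when cells were thinned to 100000 counts (0.258 in MkP, 0.203 in CFU), and the call in MkP also with the trends removed (0.301). The cause was not tested.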
